A study of Mus musculus with 10 samples.

Results

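YTHDC1 RNA immunoprecipitation (RIP) from mouse embryonic stem cells gave 30992 peaks, and 920 of them are the narrow peaks in long noncoding RNA (lncRNA) genes described here. The members were selected by their measured width and position: a peak of 1000 bp or less, with its midpoint inside a RefSeq lncRNA gene span and inside no protein-coding gene span. Of the 30992 peaks, 26084 (84.2%) were 1000 bp or less, and the 920 members were 3.53% of these. They lay in 650 lncRNA genes, which were 6.52% of the 9970 lncRNA genes with at least 1 base outside coding spans. Width and position chose the members, so peak counts, widths and peaks per kb are given as descriptions without tests. The m6A peak lists took no part in the choice.

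The RIP came from embryonic stem cells carrying a Halo-Ythdc1 knockin, with 1 precipitate and 1 input of total RNA. m6A (N6-methyladenosine) immunoprecipitation of polyA RNA covered Mettl3 wild-type cells (2 precipitates, 2 inputs) and Mettl3 KO cells (2 precipitates, 2 inputs). All 3 peak lists hold positions alone, in mm10, with no height, strand or value per replicate. The depth behind each peak is therefore unknown, and input level and binding cannot be told apart in peak counts. The cells were grown feeder-free in serum and LIF, and the labels describe the line as male and derived from 129 mice. Halo-tagged protein was captured on beads and washed under denaturing conditions, and the RNA was neither digested nor fragmented during the pull-down, so a peak marks read density along a transcript and not a trimmed binding site. The Halo-GFP control that the protocol mentions was not analysed here. The Mettl3 KO samples carry a cell type label that reads WT; the genotype in their titles was followed. One list is named for the Mettl3 wild type and 1 for the KO. The label of 1 of the 2 KO precipitates names the wild-type list, so which libraries entered each list is not settled. The labels do not say that same-genotype samples were separate cultures. No expression levels were used here, so the stem cell identity was not checked against markers.

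YTHDC1 is the nuclear member of the YTH family of proteins that bind m6A, and it is known for roles in splicing, export and chromatin-associated RNA. METTL3 is the catalytic subunit of the complex that writes most m6A on polyadenylated RNA. lncRNAs are transcripts without a long coding frame; many stay in the nucleus, and some, the snoRNA host genes, carry small nucleolar RNAs in their introns that are released during splicing.

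The RefSeq promoter table (GRCm38.p6) held a window of 300 bases, from 250 before to 50 after the annotated start, for 506 of the 650 genes. Among the 40 genes named by rule, 4 had a narrow RIP peak reaching into that window, and their windows are shown because they place the peak against the start of the transcript. Bases under the RIP peak are in capitals, 5′ to 3′ on the gene's strand. The 2810013P06Rik window is chr8:123042325-123042624 on the plus strand, with 22 bases under the peak. The Snhg15 window is chr11:6528711-6529010 on the minus strand, with 45 bases under the peak. The Platr22 window is chr1:136695961-136696260 on the plus strand, with 50 bases under the peak. The 2010320M18Rik window is chr8:70776612-70776911 on the plus strand, with 109 bases under the peak.
2810013P06Rik: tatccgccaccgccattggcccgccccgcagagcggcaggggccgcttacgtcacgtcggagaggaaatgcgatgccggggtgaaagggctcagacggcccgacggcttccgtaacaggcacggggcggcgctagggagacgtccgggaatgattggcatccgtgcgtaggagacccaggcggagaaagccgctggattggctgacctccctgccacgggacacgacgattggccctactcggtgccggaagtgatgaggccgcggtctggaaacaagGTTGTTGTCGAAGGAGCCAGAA
Snhg15: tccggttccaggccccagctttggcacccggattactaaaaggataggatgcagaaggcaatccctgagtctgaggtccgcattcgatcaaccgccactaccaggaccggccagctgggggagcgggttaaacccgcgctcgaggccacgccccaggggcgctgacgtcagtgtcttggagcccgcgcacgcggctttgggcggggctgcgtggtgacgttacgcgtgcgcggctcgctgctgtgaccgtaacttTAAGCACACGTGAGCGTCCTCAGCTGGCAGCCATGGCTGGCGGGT
Platr22: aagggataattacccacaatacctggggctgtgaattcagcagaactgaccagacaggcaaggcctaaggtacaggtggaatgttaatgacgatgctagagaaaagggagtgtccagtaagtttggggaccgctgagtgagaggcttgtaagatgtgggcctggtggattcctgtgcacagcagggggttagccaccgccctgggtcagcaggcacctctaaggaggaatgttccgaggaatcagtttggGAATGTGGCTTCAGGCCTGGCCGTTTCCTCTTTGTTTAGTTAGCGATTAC
2010320M18Rik: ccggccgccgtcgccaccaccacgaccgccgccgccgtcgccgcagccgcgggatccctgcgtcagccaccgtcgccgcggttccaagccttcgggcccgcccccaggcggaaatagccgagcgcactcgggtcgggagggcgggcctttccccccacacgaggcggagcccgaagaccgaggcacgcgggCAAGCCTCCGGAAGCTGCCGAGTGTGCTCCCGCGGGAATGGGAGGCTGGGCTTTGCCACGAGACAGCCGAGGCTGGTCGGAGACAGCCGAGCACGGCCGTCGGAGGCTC

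In 2810013P06Rik, Snhg15 and Platr22 the capitals lie within the first 50 transcribed bases, and in 2010320M18Rik they begin before the annotated start. The peaks at 2810013P06Rik and 2010320M18Rik also overlapped a wild-type m6A peak, the peak at Snhg15 overlapped a Mettl3 KO m6A peak, and the peak at Platr22 overlapped neither. The pentamer GGACT, the best-known form of the m6A consensus, was searched on both strands (AGTCC on the other) and did not occur in these 4 windows. It occurred in 15 of the 42 windows that a member touched in its own gene (35.7%), against 14948 of all 32851 windows (45.5%). A match or its absence describes these letters only.

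Narrow peaks also reached 4 microRNA hairpins, shown because they mark small RNAs processed from lncRNA hosts. Capitals again mark the bases under the RIP peak, and U is written as in the RefSeq table. Mir6516 lies in Snhg20 (chr11:117077348-117077457, plus strand), with 87 of 110 bases under the peak. Mir3069 lies in Snhg10 (chr12:105031077-105031141, minus strand), with 34 of 65 bases. Mir410 lies in Mirg (chr12:109743715-109743795, plus strand), with 14 of 81 bases. Mir3569 lies in Gm32082 (chr7:30589380-30589437, plus strand), with 32 of 58 bases.
Mir6516: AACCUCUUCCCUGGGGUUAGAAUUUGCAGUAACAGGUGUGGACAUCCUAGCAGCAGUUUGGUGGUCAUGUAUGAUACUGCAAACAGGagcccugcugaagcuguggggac
Mir3069: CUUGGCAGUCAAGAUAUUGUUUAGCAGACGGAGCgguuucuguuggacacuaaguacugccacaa
Mir410: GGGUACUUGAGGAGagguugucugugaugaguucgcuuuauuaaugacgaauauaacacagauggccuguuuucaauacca
Mir3569: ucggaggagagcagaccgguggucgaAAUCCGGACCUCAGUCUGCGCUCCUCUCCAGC

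The capitals run from the 5′ end in Mir6516, Mir3069 and Mir410 and to the 3′ end in Mir3569, and no peak covered a whole hairpin. None of these 4 peaks overlapped an m6A peak of either genotype. The m6A lists came from polyA RNA, so nothing is read from this about processed small RNAs.

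Most lncRNA genes in the set held a single narrow peak. Of the 650 genes, 498 held 1 peak, 101 held 2, 18 held 3, 16 held 4, 9 held 5 and 4 held 6. Single genes held 7 and 8 peaks, and 2 genes held 9. The 51 genes with 3 or more peaks held 220 of the 920 members (23.9%). Genes with provisional names, of the Gm or Rik kind, made up 566 of the 650 and held 717 members. The other 84 genes held 203 members and were 16.7% of the 502 lncRNA genes with such names, against 4.63% of the 12225 with provisional names; both shares are of all lncRNA genes, also those wholly within coding spans.

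5430416N02Rik, a lncRNA gene of unassigned function on chromosome 5 (chr5:100420842-100429535, minus strand, 8.69 kb), held 9 narrow peaks of 87 to 368 bp. They were spread over 7753 bp, from 3.81% to 93.0% of the span counted from its 5′ end. The peak nearest the 5′ end, chr5:100429043-100429366, overlapped a Mettl3 KO m6A peak at chr5:100429101-100429550, and the gene held no wild-type m6A peak. Pvt1, the lncRNA gene beside Myc on chromosome 15, also held 9 peaks, of 47 to 291 bp. Its span was 222 kb and its peaks covered a stretch of 197092 bp, so its density was 0.0405 peaks per kb against 1.04 in 5430416N02Rik. Pvt1 held no m6A peak of either genotype. Both genes lead by count, but their peaks are packed differently.

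**Figure D1:**
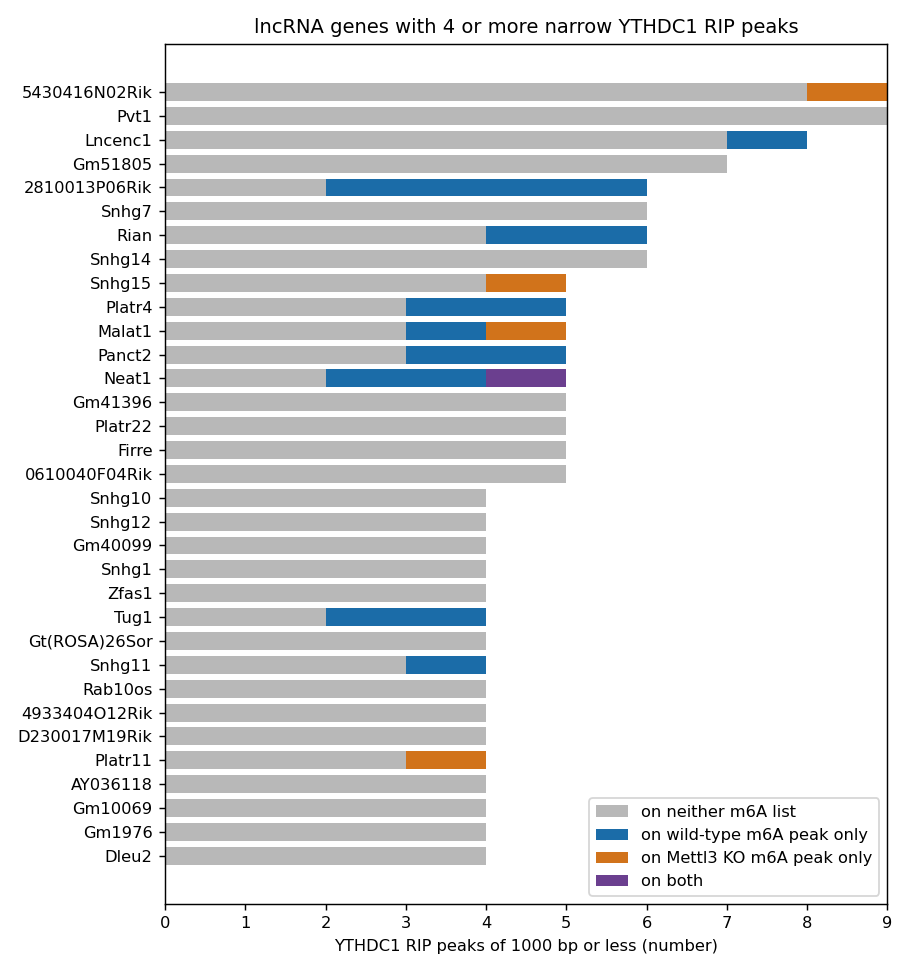
Number of YTHDC1 RIP peaks of 1000 bp or less (x axis) in each lncRNA gene with 4 or more of them (y axis), coloured by overlap with a wild-type m6A peak, a Mettl3 KO m6A peak, both or neither. 2810013P06Rik has 4 of 6 peaks on wild-type m6A and Neat1 3 of 5, while the bars of Pvt1, Gm51805, Snhg7 and Snhg14 are wholly grey (neither list).

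Lncenc1, a lncRNA named for its expression in embryonic stem cells, held 8 peaks of 134 to 884 bp. All 8 lay between 74.0% and 99.2% of its 62.7 kb span (chr13:97434970-97497664, plus strand). The gene held 4 wild-type m6A peaks and no KO m6A peak, and 1 of its RIP peaks, chr13:97494388-97494606, lay inside a wild-type m6A peak of 1700 bp. The other 7 lay 110 to 3506 bp from the nearest wild-type m6A peak, so the RIP and m6A peaks shared the 3′ part of the span without mostly sharing bases. Gm51805 on chromosome 10, a provisional gene with 7 peaks of 62 to 200 bp within 11783 bp, held no m6A peak.

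2810013P06Rik had the highest density among genes with 3 or more peaks: 6 peaks in a span of 2.03 kb (chr8:123042575-123044602, plus strand), or 2.96 per kb. It also held 4 wild-type m6A peaks and no KO m6A peak. Its RIP peaks at 6.26%, 22.0%, 45.2% and 67.5% of the span overlapped wild-type m6A. The remaining 2 peaks lay 33 and 2 bp from a wild-type m6A peak. In this gene, RIP and wild-type m6A peaks therefore lay close together along the span. The RIP peaks held 881 bp of the 2.03 kb, and the m6A peaks were 150 to 400 bp wide. With so much of the span covered, little is read from their closeness. The gene is short and close to the coding gene Ankrd11; when coding spans were widened by 5 kb, none of its peaks counted as members.

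The next genes by density were Snhg10 with 2.41 peaks per kb, Snhg7 with 1.96, Snhg12 with 1.7, Gm40099 with 1.61 and Snhg15 with 1.58. Snhg1 followed with 1.41, Zfas1 with 1.37, 5430416N02Rik with 1.04 and Platr4 with 0.906. Of these 10 genes led by 2810013P06Rik, 6 are snoRNA hosts of the list used here. With coding spans widened by 5 kb, Snhg10, Snhg7, Snhg12, Snhg1 and Zfas1 held no member, and Snhg15 kept 4. Over the 51 genes with 3 or more peaks the density ranged from 0.0051 to 2.96 per kb, with a median of 0.195. Density was taken over the whole span, including any part within coding spans, where no member could lie. Density falls with span by construction, because a gene enters with at least 1 peak: the median was 0.463 per kb in the 133 genes of up to 5 kb and 0.00685 in the 52 genes over 100 kb. The share of lncRNA genes holding a member ran the other way, from 3.14% of the 4236 genes of up to 5 kb to 18.5% of the 281 genes over 100 kb. These shares are of all 12727 lncRNA genes, including those that lie wholly within coding spans and could hold no member.

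**Figure D2:**
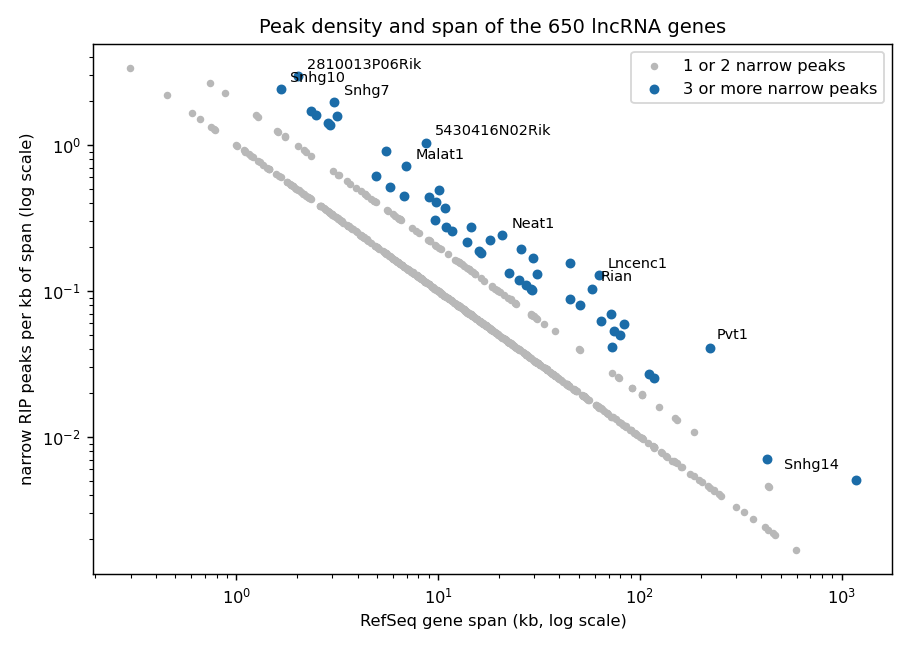
Narrow RIP peaks per kb (y axis, log scale) against RefSeq gene span in kb (x axis, log scale) for the 650 lncRNA genes, 1 point per gene, blue for genes with 3 or more peaks. Genes with 1 peak form the lower diagonal; 2810013P06Rik at 2.96 per kb and Snhg14 at 0.0051 are the ends of the blue set.

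snoRNA genes lay in the spans of 112 lncRNA genes, and 33 of these (29.5%) held a member, 75 members in all. In a list of 19 named hosts, chosen with earlier results known, 17 (89.5%) held a member, and they held 47 members at a median of 0.92 peaks per kb. The rule chose genes on these peaks, so nothing is read from these shares against the 6.52% of lncRNA genes. Snhg18 and Snhg9 held none. One of the 17 hosts held a wild-type m6A peak (Snhg11, with 1 of its 4 RIP peaks on it), and 3 held a KO m6A peak.

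Snhg7, host of H/ACA snoRNAs, held 6 peaks of 67 to 451 bp in 3.07 kb (chr2:26637176-26640244, minus strand) and no m6A peak. Its peaks at chr2:26637768-26638009 and chr2:26639273-26639540 covered bases of Snora43 and Snora17, the 2 snoRNA genes in its span. Snhg12 had 2 of 4 peaks on snoRNA genes, Snora61 and Snord99. Snhg3 had both of its peaks on snoRNA genes, Snora73b and Snora73a. Snhg1, a host of box C/D snoRNAs, had 3 of 4 peaks on snoRNA genes, 1 of them Snord22 (chr19:8725858-8726058). Gas5, a growth-arrest lncRNA and C/D host, had both of its peaks on snoRNA genes, 2 of the 8 in its span. Snhg10 had 1 of 4 peaks on Scarna13, a Cajal body guide RNA. Snhg15 had 1 of 5 peaks on a snoRNA gene, and its 5′-most peak, chr11:6528531-6528755, overlapped a KO m6A peak.

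In all, 24 members (2.61%, exact 95% interval 1.68 to 3.86%) in 17 host genes overlapped a snoRNA gene or guide RNA gene, and 23 snoRNA genes were reached. Among narrow peaks in coding genes 40 (0.194%) did so, and among narrow peaks outside both kinds of gene 5 (0.109%); these differences were not tested. None of the 24 overlapped a wild-type m6A peak. At 5.65% of all members, so small a number of peaks cannot show a difference. Host snoRNAs lie in introns and the m6A lists came from polyA RNA, so nothing is read from this absence. Members reached microRNA genes in 4 cases, 1 of which is the Snhg10 peak that also covers Scarna13, and snRNA genes in 3, so that 30 members lay on a small RNA gene of these kinds. Among those on snRNA genes was the peak of Gm40099, 1 of its 4, on the U1 gene Rnu1b6. Small nuclear RNA genes have near-identical copies, so the position of such a peak is uncertain. Pseudogenes underlay 36 members (3.91%), against 1.15% in coding genes and 13.7% outside both.

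**Figure D3:**
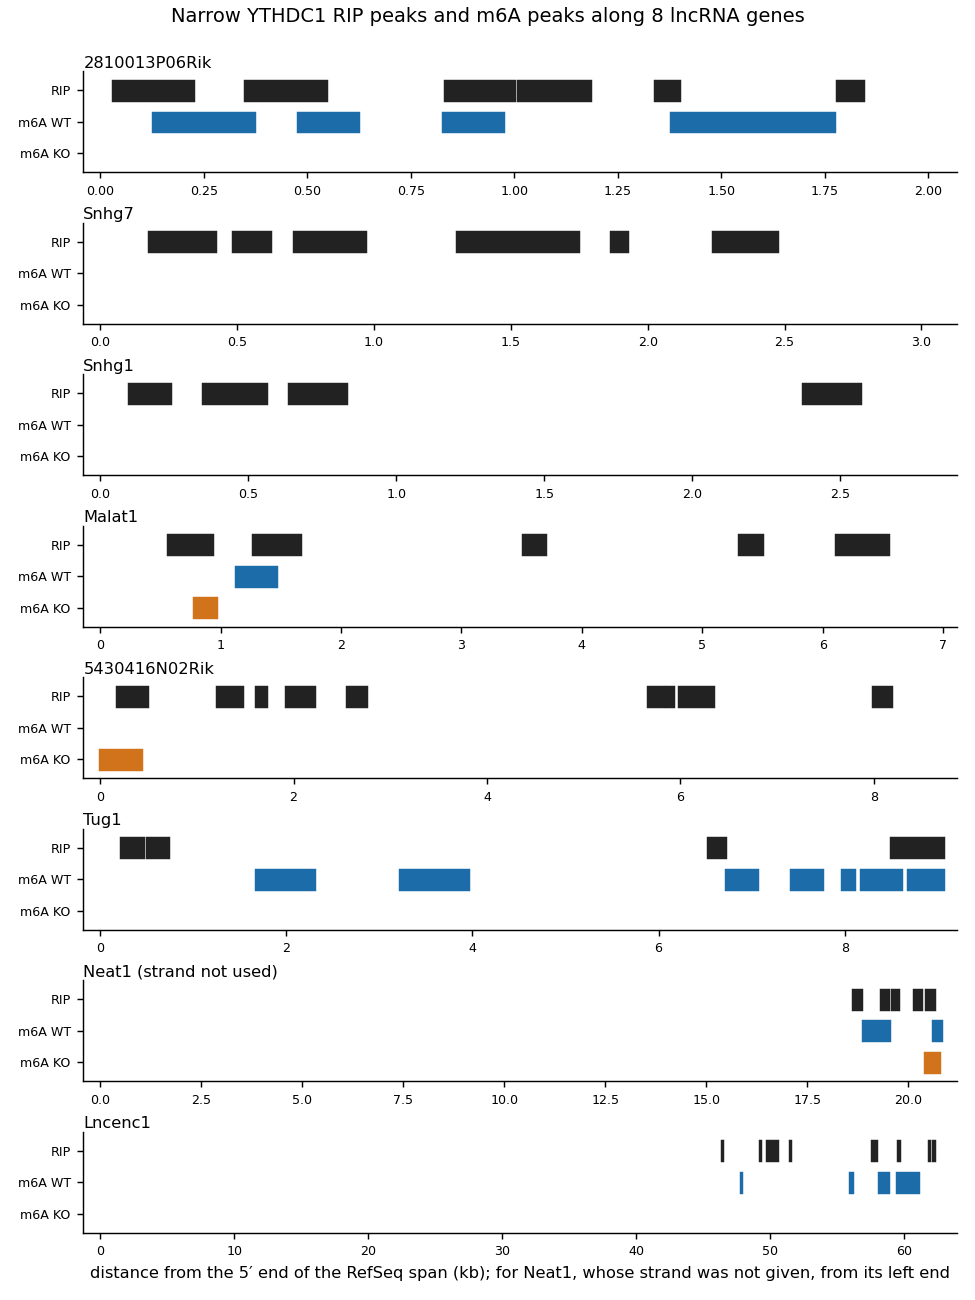
Positions of narrow RIP peaks (black), wild-type m6A peaks (blue) and Mettl3 KO m6A peaks (orange) along 8 lncRNA genes; the x axis is distance in kb from the 5′ end of the span, or from the left end for Neat1, and peaks a few bp apart are drawn touching. Snhg7 and Snhg1 have RIP peaks and no m6A peak, 2810013P06Rik and Tug1 have both along the span, and the peaks of Neat1 and Lncenc1 are at 1 end.

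In the list of nuclear and X-linked RNAs, 8 of 12 matched genes (66.7%, against 6.52% of lncRNA genes) held a member, 37 members in all. The list also holds Norad, which is cytoplasmic. For this list and those below, matched genes were counted even where they lie wholly within coding spans, which the 6.52% leaves out. The lists were chosen with earlier results known, so nothing is read from their shares against the 6.52%. Malat1, the abundant nuclear speckle RNA, held 5 peaks of 200 to 451 bp in 6.98 kb (chr19:5795690-5802672, minus strand). The peak at chr19:5801000-5801412 overlapped its wild-type m6A peak, chr19:5801201-5801550. The peak at chr19:5801736-5802116 overlapped its KO m6A peak, chr19:5801701-5801900. The other 3 lay 2029 to 4630 bp from the wild-type m6A peak, toward the 3′ end. Neat1, the scaffold RNA of paraspeckles, held 5 peaks of 200 to 253 bp within 1803 bp at the right-hand end of its 20.8 kb span. Of these, 3 overlapped wild-type m6A and 1 of the 3 overlapped the KO m6A peak as well, chr19:5845101-5845500. Both genes held 5 RIP peaks, of which 3 lay on wild-type m6A in Neat1 and 1 in Malat1.

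Norad, a cytoplasmic RNA that binds Pumilio proteins, had 2 of 3 peaks on a wild-type m6A peak of 1100 bp. Its KO m6A peak, chr2:156392751-156393000, lay inside that wild-type peak and touched no member. Tug1, a widely expressed lncRNA, held 7 wild-type m6A peaks and no KO m6A peak, and 2 of its 4 RIP peaks overlapped wild-type m6A; it was named after its values were seen. Firre, the X-linked RNA of nuclear organisation, held 5 peaks of 200 to 463 bp, all at least 5105 bp from its 1 wild-type m6A peak. Xist, the RNA that silences the inactive X chromosome, held 2 narrow peaks, at 98.5% and 40.5% of its span, and neither touched the gene's 1 m6A peak, a KO peak of 750 bp. The lists give no strand, so Xist and its antisense partner Tsix cannot be told apart there.

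Of 8 matched imprinted lncRNA genes, 5 (62.5%, against 6.52%) held 16 members. Rian, a maternally expressed snoRNA host of the Dlk1-Dio3 cluster, held 6 peaks in 57.8 kb. The 2 at its 3′ end, at 96.5% and 98.7% of the span, overlapped wild-type m6A peaks at chr12:109659701-109659900 and chr12:109660651-109661100. The other 4 lay 8767 bp or more from wild-type m6A, and 1 of them covered bases of the snoRNA gene AF357359. Meg3, the neighbouring maternally expressed RNA, held 1 narrow peak that touched none of its 4 wild-type and 3 KO m6A peaks. Mirg, the microRNA host of the cluster, held 2 peaks, 1 of them on Mir410, and no m6A peak. Snhg14, the long paternally expressed host transcript of the Prader-Willi region, held 6 peaks of 159 to 200 bp, all within 10651 bp of its 1180 kb span. One of the 206 snoRNA genes in that span lay under a member. Snhg14 kept 3 members when coding spans were widened by 5 kb. H19, the maternally expressed microRNA precursor, held 1 narrow peak, on 1 of its 4 KO m6A peaks, and no wild-type m6A peak. Kcnq1ot1, the antisense imprinting RNA, held no member. Peaks within coding spans could not count for it, so this is not read as an absence of RIP peaks there.

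Of 18 matched embryonic stem cell RNAs, 12 (66.7%, against 6.52%) held 31 members. Platr4, a pluripotency-associated transcript, held 5 peaks of 185 to 498 bp in 5.52 kb, and 2 of them overlapped its 2 wild-type m6A peaks. Platr22 held 5 peaks of 182 to 247 bp, the first beginning at its annotated start, and no m6A peak. Platr27 held 2 peaks, of 319 and 718 bp, and no m6A peak. Of the 7 matched genes in the microRNA host list, 1 (14.3%, against 6.52%) held a member. This was Mir17hg, the host of an oncogenic microRNA cluster, with a single peak of 200 bp and no m6A peak. Mirg and H19, described above as sources of microRNAs, were counted in the imprinted list. The microRNA host list therefore does not hold every microRNA host with a member.

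Few narrow lncRNA peaks lay on m6A peaks. A member shared at least 1 bp with a wild-type m6A peak in 52 of 920 cases (5.65%, exact 95% interval 4.25 to 7.35%), and with a KO m6A peak in 15 (1.63%, 0.915 to 2.67%). Over all 26084 narrow RIP peaks these shares were 6.56% and 5.69%. Of the members, 49 lay on wild-type m6A alone, 12 on KO m6A alone, 3 on both and 856 on neither. The 52 fell in 36 genes and the 15 in 15 genes. The intervals cover counting error only. The m6A lists came from polyA RNA and the RIP input was total RNA. Members were placed by whole gene span, and exons and introns were not told apart. The part of either in these shares was not tested, so they are not read as binding away from m6A.

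The genes with most peaks on wild-type m6A were 2810013P06Rik with 4 and Neat1 and A230045G11Rik with 3 each. Norad, 2010320M18Rik, Gm35515, Panct2, B230220B15Rik, Gm36005, Rian, Platr4 and Tug1 had 2 each. Of these genes, 2810013P06Rik, A230045G11Rik and 2010320M18Rik held no member when coding spans were widened by 5 kb. In 2010320M18Rik, a gene of 0.745 kb, both peaks lay on 1 m6A peak of 850 bp that was longer than the gene. In Panct2, whose 5 peaks were 66 to 469 bp wide, chr1:96877605-96878073 and chr1:96878087-96878152 overlapped 1 wild-type m6A peak. In A230045G11Rik the 3 peaks were 32, 319 and 227 bp wide and all lay in the first 16.6% of the span. Every gene with a peak on KO m6A had 1 such peak. Besides 5430416N02Rik, Snhg15, Malat1, Neat1 and H19, these included 2410003I16Rik, AU015836, Srrm4os, 2600014E21Rik and Gm13165. In F630206G17Rik and Gm30363 as well as Neat1, 1 peak overlapped m6A peaks of both genotypes.

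Against narrow peaks in coding genes, members overlapped KO m6A less often. The share was 1.63% against 6.78% (1396 of 20578), and the odds ratio was 0.228 (95% interval 0.136 to 0.38; adjusted p = 2.7e-12 by a two-sided Fisher's exact test, 4 comparisons). For wild-type m6A the shares were 5.65% and 7.64% (1573 of 20578), and the odds ratio was 0.724 (0.545 to 0.962; adjusted p = 0.034 by Fisher's exact test). That second difference did not pass under 4 of 10 alternatives, where the odds ratio was 0.693 to 0.83 and the adjusted p 0.07 to 0.4. Peaks are not replicates, and peaks of 1 gene share a transcript: with 1 count per gene the odds ratios were 0.323 for wild type and 0.148 for KO. A gene counted there if any of its peaks overlapped m6A. Coding genes held more peaks each (20578 in 8684 genes, against 920 in 650) and so had more chances to count. These odds ratios are therefore not read as a stronger difference. Between single-peak genes of both kinds the wild-type odds ratio was 0.178, with 10 of 498 members against 380 of 3688 coding peaks on wild-type m6A (adjusted p = 2.4e-11 by Fisher's exact test).

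Against narrow peaks outside both kinds of gene, members overlapped wild-type m6A more often, at 5.65% against 1.9% (87 of 4586). The odds ratio was 3.1 (2.18 to 4.4, adjusted p = 5.1e-09 by Fisher's exact test). Peaks were the units here too, and the 52 members on wild-type m6A fell in 36 genes. No count per gene was possible outside genes, so the interval and p-value overstate certainty. That call was lost for the 498 members that were the single narrow peak of their gene. Their share was 2.01% and the odds ratio 1.06 (adjusted p = 0.86 by Fisher's exact test). All 4586 peaks outside genes were kept there, clustered ones included, so this does not compare like with like. For KO m6A the shares were 1.63% and 1.61% (74 of 4586), and the odds ratio was 1.01 (0.578 to 1.77; adjusted p = 1 by Fisher's exact test). The KO interval spans odds from 0.578 to 1.77 times those outside genes, and no direction is read from it. The wild-type and KO lists differ in length, 12368 and 6764 peaks, and no test between genotypes was made.

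**Figure D4:**
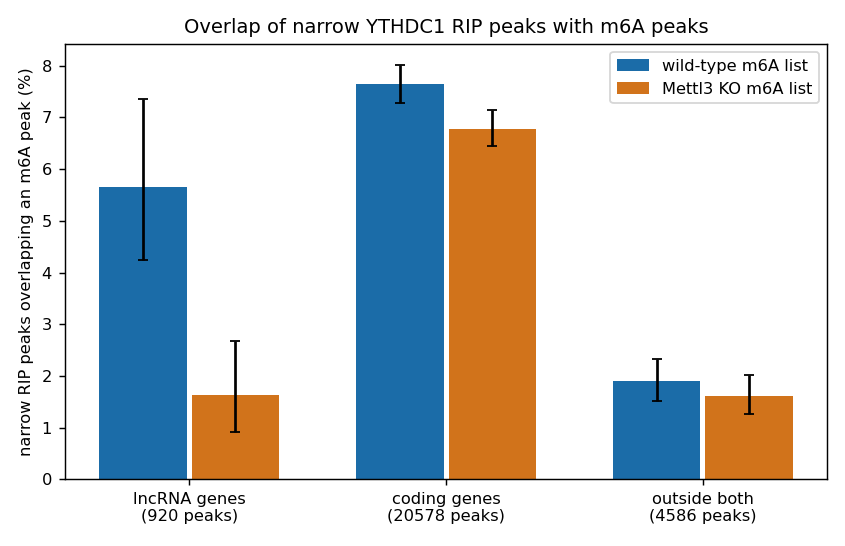
Share of narrow RIP peaks (y axis, %) overlapping a wild-type (blue) or Mettl3 KO (orange) m6A peak in lncRNA genes, coding genes and outside both; error bars are exact 95% intervals. In lncRNA genes the shares are 5.65% and 1.63%, while in coding genes they are 7.64% and 6.78% and outside both 1.9% and 1.61%.

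At the level of whole genes, m6A peaks were more frequent in genes with narrow RIP peaks than in lncRNA genes at large, a difference that was not tested. Of the 650 genes, 76 (11.7%, exact 95% interval 9.32 to 14.4%) held a wild-type m6A peak outside coding spans. Among the 9970 lncRNA genes with at least 1 base outside coding spans, 1.22% did. For KO m6A the numbers were 35 (5.38%, 3.78 to 7.41%) against 0.642%. RNA level was not compared, and genes with a member had a longer median span. It was 14.5 kb, against 8.43 kb for all 12727 lncRNA genes, also those wholly within coding spans. The part of RNA level or span in these shares was not tested. Both genotypes' peaks occurred in 19 genes, wild-type peaks alone in 57 and KO peaks alone in 16. Put the other way, 76 of the 122 lncRNA genes with wild-type m6A (62.3%) and 35 of the 64 with KO m6A (54.7%) held a member.

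The genes were also described by their number of narrow peaks. A wild-type m6A peak lay in 35 of 498 genes with 1 peak (7.03%), in 24 of 101 genes with 2 (23.8%) and in 17 of 51 genes with 3 or more (33.3%, 20.8 to 47.9%). The KO m6A shares were 2.61%, 11.9% and 19.6% in the same order. The classes were formed on the RIP peaks that chose the genes, and RNA level and span were not accounted for. These shares are therefore a description and no test was made.

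**Figure D5:**
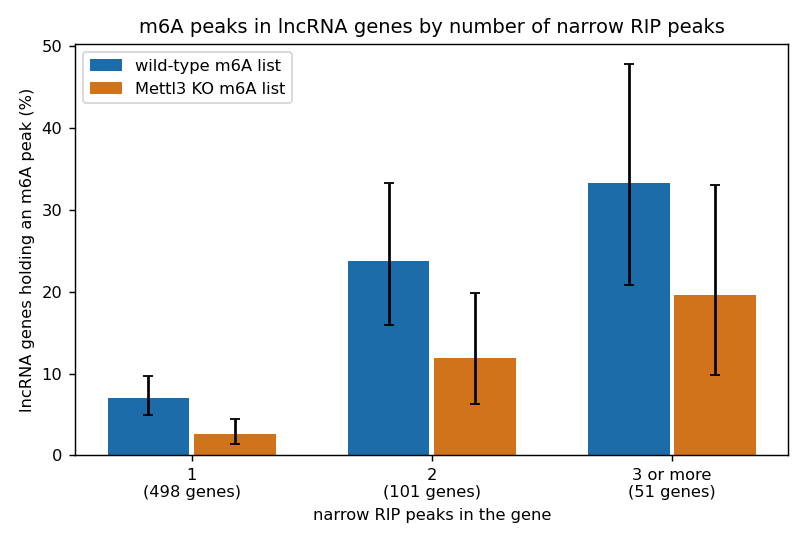
Share of lncRNA genes (y axis, %) that hold a wild-type (blue) or Mettl3 KO (orange) m6A peak, for genes with 1, 2 and 3 or more narrow RIP peaks (x axis); error bars are exact 95% intervals. The wild-type share is 7.03%, 23.8% and 33.3% from left to right.

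Sharing a gene did not mean sharing bases. A RIP peak marks read density on RNA left unfragmented, so the distances below do not place binding apart from m6A. Of the 160 members in genes with a wild-type m6A peak, 52 overlapped one, 36 lay within 1 kb without overlap and 72 lay farther away, and the median distance was 596 bp. These genes held 137 wild-type m6A peaks, of which 46 (33.6%) touched a member. The wild-type m6A peaks under members were 100 to 1700 bp wide with a median of 450 bp, against a median of 400 bp for the whole list. A wider m6A peak is more readily touched when 1 shared bp counts, so nothing is read from this difference. KO m6A peaks under members were 150 to 450 bp wide with a median of 250 bp. Of the 52 members on wild-type m6A, 19 lay wholly inside the m6A peak.

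Members were 11 to 970 bp wide, with a median of 200 bp and quartiles of 175 and 229 bp. Exactly 200 bp was the width of 255 members (27.7%), against 30.6% of narrow peaks in coding genes and 23.4% outside both. Another 81 members (8.8%) were under 100 bp and 27 (2.93%) were over 500 bp. Just inside the limit of 1000 bp were peaks in Lncenc1 (884 bp), Gm32266 (905 bp) and 1700030F04Rik (970 bp). Just outside were peaks in Gm20754 (1062 bp), Gm41601 (1065 bp) and 4933430M04Rik (1091 bp). By the same position rule, 261 RIP peaks over 1000 bp lay in 230 lncRNA genes, with a median of 5391 bp, and 38 of the 650 genes held one of these too.

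Strand was known for 506 genes with 709 members. With each span cut into 10 equal parts from its 5′ end, the first part held 127 midpoints (17.9%), the second 88 and the last 70 (9.87%), and the median position was 42.1% of the span. Within 1 kb of the 5′ end lay 161 members (22.7%), and within 1 kb of the 3′ end 96 (13.5%). The 40 members of known strand that overlapped wild-type m6A had a median position of 61.2%. Neighbouring members of 1 gene formed 270 pairs with a median gap of 1094 bp and quartiles of 199 and 4870 bp, and 100 pairs (37.0%) were 500 bp or less apart. Genes with a member had a median span of 14.5 kb, against 8.43 kb for all 12727 lncRNA genes, also those wholly within coding spans. The median distance of a member from the nearest coding span was 9962 bp, and 310 members (33.7%) were within 5 kb of one. Chromosome 2, which has the most lncRNA genes (951), held 88 members, in 6.2% of those genes. Chromosome 11 held 75 members, in 7.05% of its 752 lncRNA genes, and X held 24, in 5.54% of its 289.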

How the data were processed

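The 10 samples were grouped by their titles. The authors' deposited RIP and m6A peak lists (chromosome, start and end; no score) were used as given. The build, mm10, and the software come from the submitters' processing notes, which name MACS2 2.1.2, SAMtools 1.9, HISAT2 2.2.0, Trim Galore 0.6.4, STAR 2.7 and bcl2fastq. What each was used for, the peak threshold and any pooling of replicates were not given in the sources used here. A pooled or per-sample call would change how many peaks each list holds.

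Gene spans came from RefSeq (GRCm38.p6, the mm10 assembly). A midpoint in several lncRNA spans (25 members) was given to the shortest. Overlap meant at least 1 shared bp, and an m6A peak was counted in a gene by its midpoint outside coding spans. Shares have exact Clopper-Pearson 95% intervals, and odds ratios have Wald intervals. Fisher's exact tests were two-sided, with Benjamini-Hochberg adjustment over 4 comparisons and a threshold of 0.05; the script was tested on simulated data. Python 3.11.15, pandas 2.3.3, NumPy 2.4.6, SciPy 1.17.1 and matplotlib 3.10.9 were used.

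The members and gene lists (nuclear and X-linked, imprinted, snoRNA host, microRNA host and embryonic stem cell RNAs) were chosen with earlier results of these data known. Named genes were the 10 with most narrow peaks, the 10 densest with at least 3, up to 10 with most peaks on m6A of each genotype, up to 4 from each list, and 8 fixed names (Malat1, Neat1, Xist, Lncenc1, Snhg14, Rian, Meg3, Kcnq1ot1). Others named were picked after their values were seen: Tug1, Snhg3, Gas5, Snhg9, Snhg11, Snhg18, Snhg20, Gm32082 and the genes at the width limit. Alternatives changed the width limit, the member rule, the coding span, the overlap and the m6A width, counted genes once, or left out the 10 leading genes; those on single-peak genes and on m6A inside coding spans, and the named-gene counts, were added after seeing the data.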

Additional observations from a re-analysis of the deposited data

How the results depend on the processing

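No paired analysis was possible because the peak lists carry no values per replicate; for the same reason no replicate could be left out. The share of members on wild-type m6A (5.65%) became 4.24% when an m6A peak had to cover at least 50% of the RIP peak, 3.15% with m6A peaks above their median width and 2.01% for the 498 members alone in their gene. The share on KO m6A (1.63%) became 4.57% with m6A midpoints within 500 bp and 0.652% with m6A peaks above their median width. The share of genes holding wild-type m6A (11.7%) became 6.62% with those wider m6A peaks, 7.03% for genes with 1 narrow peak and 17.7% when coding spans were not excluded. Against coding genes, the wild-type odds ratio (0.724) lost its call at 0.763 with a limit of 2000 bp, at 0.83 with coding spans widened by 5 kb, at 0.743 with the stricter overlap and at 0.693 with wider m6A peaks; it passed in the other 6 of 10 alternatives, and was 0.178 between single-peak genes. The KO odds ratio against coding genes passed in 10 of 10, at 0.148 to 0.48. Outside both kinds of gene, the wild-type odds ratio passed in 8 of 9 and fell to 1.06 for members alone in their gene. The KO odds ratio against peaks outside both (1.01) fell below 1 in 4 of 9: 0.96 when whole peaks had to lie in the span, 0.906 with wider m6A peaks, 0.944 without the 10 leading genes and 0.618 for members alone in their gene. The cause of these shifts was not tested. Counting once per gene gave no value outside genes. For members alone in their gene, all peaks outside genes were kept, so 1.06 and 0.618 do not compare like with like. With coding spans widened by 5 kb, 614 members in 436 genes were left, and 11 of 40 named genes fell by over 1.5 times in peak count, Snhg7, Snhg10, Snhg12, Snhg1, Zfas1 and 2810013P06Rik among them. Depth per peak is unknown, so an absent peak is not an absent transcript.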
